A study of Mus musculus with 27 samples.

Results

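Histone chaperones are proteins that escort histones and hand them to DNA, so that nucleosomes can be built, opened and rebuilt. The 10 genes described here were taken by symbol from the 20156 genes of the expression tables, and all 10 passed the filter on low values. They are Chaf1a and Chaf1b (subunits of CAF-1), Asf1a and Asf1b, Hira, Daxx and Atrx, Nap1l1, and Ssrp1 and Supt16h (the subunits of FACT). CAF-1 places histones H3 and H4 on newly copied DNA, while HIRA and the pair DAXX and ATRX place the replacement variant of H3 outside of replication, HIRA mostly in transcribed chromatin and DAXX with ATRX mostly in heterochromatin and at telomeres. The ASF1 proteins pass H3 and H4 to CAF-1 and HIRA, NAP1L1 carries H2A and H2B, and FACT moves nucleosomes aside for polymerases and restores them behind. CAF-1 is known from other work as a brake on the reprogramming of fibroblasts.

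The study followed mouse embryo fibroblasts (MEFs) through partly reprogrammed cells (pre-iPSCs) to induced pluripotent stem cells (iPSCs). MEFs came from e13.5 embryos that were hemizygous for an Oct4-GFP transgene and a Rosa26 allele, on a background labelled CBA/CaJ and C57BL/6J, and the methods of the study name 129Sv/Jae mothers. The reprogrammed cells were made from such MEFs with retroviral Yamanaka factors. Pre-iPSCs and iPSCs were both kept with LIF on MEF feeders, so their libraries can hold RNA and chromatin of feeders. Pre-iPSCs and iPSCs were grown for 6 passages before RNA-seq and MEFs for at most 3. The study used 2 stable clones of pre-iPSCs with their iPSCs, and the clone behind each library is not given in the sources used here. RNA-seq, and MNase ChIP-seq of H3, H3K4me3 and H3K27me3, comprised 2 libraries for each of the 3 cell types, and H3K9me3 comprised 1. The MNase digestion of MEFs differed from that of the reprogrammed cells in dose and duration, so in chromatin a difference from MEFs cannot be told apart from the digestion. In bulk RNA, fewer cells expressing a gene and less RNA per cell cannot be told apart either.

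The 12 fibroblast markers summed to 13430 and 18650 FPKM in MEFs, against 490.2 to 1246 FPKM in the other 4 libraries, where none of the 12 was at 0 in both replicates of a cell type. Of the 12, 10 were called lower in each reprogrammed cell type than in MEFs, with the largest falls at Acta2 (log2 changes of -6.65 in pre-iPSCs and -7.23 in iPSCs) and Col1a2 (-5.41 and -4.91). Lum and Dcn, chosen after their values were seen, were not lower in iPSCs than in MEFs (log2 changes of 1.42 and 0.89, not called). Of 12 pluripotency markers, 8 were at 0 in both MEF libraries, all 12 were called higher in iPSCs than in MEFs, and 6 were called higher in pre-iPSCs than in MEFs. The largest rises from MEFs to pre-iPSCs were those of Pou5f1 (9.81) and Tdgf1 (8.05), from pre-iPSCs to iPSCs those of Dppa5a (7.60) and Zfp42 (5.87), and from MEFs to iPSCs those of Dppa5a (9.41) and Pou5f1 (8.63). Pou5f1, which is among the markers called higher in pre-iPSCs, encodes Oct4, a Yamanaka factor. Its RNA from the retrovirus and from the cell's own gene cannot be told apart here, and its pre-iPSC libraries were far apart, at 378 and 3184 FPKM. The Y-linked genes Ddx3y, Eif2s3y, Kdm5d and Uty were above 0 in all 6 libraries, and feeders can add such RNA to those of reprogrammed cells. Xist is not in the expression tables, so the dose of X, which bears on the X-linked Atrx, was not determined. Kdm5d was called lower in iPSCs than in pre-iPSCs, from 4.09 and 4.12 to 0.660 and 0.483 FPKM (log2 change -1.70, SE 0.35, adjusted p = 0.026, limma). On X lay 3.01 to 4.12% of the reads of MEF chromatin libraries and 1.31 to 2.59% of the others. MEF replicate 2 stands apart in expression, with a summed FPKM of 818207 against 392424 to 527799 in the other libraries. The deposited FPKM carry no read counts, and the depth behind them was not taken into account here.

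Among the members, Nap1l1 had the highest mean FPKM in every cell type and Ssrp1 the second highest. In MEFs the order was Nap1l1, Ssrp1, Supt16h, Asf1b, Chaf1b, Chaf1a, Atrx, Daxx, Asf1a and Hira, and from Supt16h to Daxx each gene overlapped its neighbour in the order. In iPSCs Chaf1b and Daxx followed Supt16h in the order, and Atrx was last. From Ssrp1 to Chaf1a the neighbours in the iPSC order overlapped, as did Asf1a, Hira and Atrx. Replicate 2 was below replicate 1 for 9 of 10 members in MEFs, for 8 of 10 in pre-iPSCs and for 5 of 10 in iPSCs. The median log2 ratio of replicate 2 to replicate 1 was -0.79 for the members in MEFs, -0.67 for those in pre-iPSCs and -0.11 for those in iPSCs, against -0.05, -0.14 and -0.02 for all genes tested, and the part of this spread in the 3 comparisons was not tested beyond leaving out each library.

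**Figure D1:**
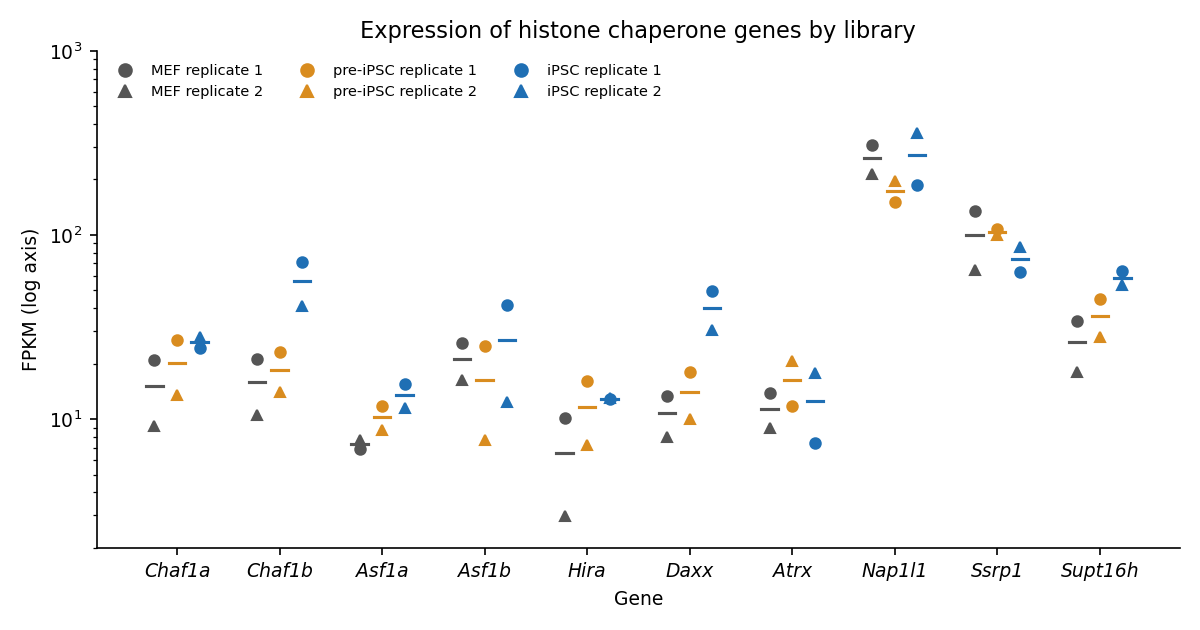
FPKM (log axis) of each of the 10 genes in each of the 6 RNA-seq libraries. Circles are replicate 1, triangles replicate 2 and bars the mean of the 2 libraries. Chaf1b (71.3 and 41.4 FPKM) and Daxx (49.3 and 30.6 FPKM) in iPSCs lie above all 4 libraries of the other cell types.

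The comparisons of expression asked which chaperone genes changed on the way to partly reprogrammed cells and which in the step to pluripotency. Daxx and Chaf1b were higher in iPSCs than in both other cell types, Supt16h was higher in iPSCs than in MEFs, and no member was called lower in any comparison. The calls are those of limma over 12401 tested genes, on the log2(FPKM + 1) scale, and need an adjusted p under 0.05 with a change of 2-fold or more. From MEFs to pre-iPSCs 0 of 10 members were called, in a comparison where 7.39% of all tested genes were called higher and 9% lower, and 0 of 10 had an unadjusted p under 0.05, beside 31.4% of all genes. From pre-iPSCs to iPSCs 2 of 10 were called higher, with 3.91% of all genes, and 0 lower, with 4.71% of all genes. From MEFs to iPSCs 3 of 10 were called higher, with 10.3% of all genes, and 0 of 10 lower, with 15.5% of all genes. An unadjusted p under 0.05 was found for 2 of 10 members from pre-iPSCs to iPSCs, beside 21.6% of all genes, and for 4 of 10 from MEFs to iPSCs, beside 39.3%, which are shares near those of all genes. The median log2 change of the 10 members was 0.38, 0.50 and 0.82 in the 3 comparisons, beside -0.04, -0.09 and -0.14 over all genes. The groups of iPSC and MEF libraries did not overlap for 6 of 10 members, 6 higher in iPSCs and 0 lower, where 26.7% of all genes were higher and 36.2% lower without overlap. From pre-iPSCs to iPSCs 3 members were higher and 1 lower without overlap, beside 20.9% and 31.1% of all genes. From MEFs to pre-iPSCs 1 was higher and 1 lower, beside 24.6% and 29.3%. The comparisons share libraries, so their changes are not independent of each other.

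**Figure D2:**
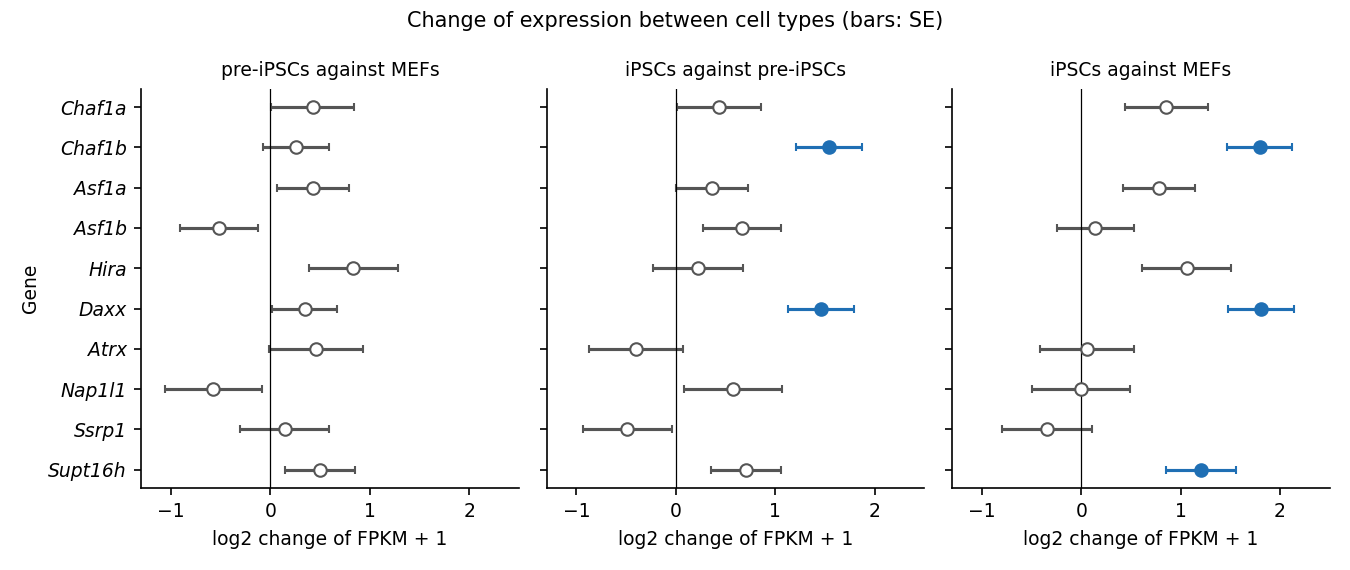
Log2 change of FPKM + 1 of each gene in the 3 comparisons (limma), with bars of 1 SE. Filled blue points are called, which are Chaf1b and Daxx in iPSCs against pre-iPSCs (log2 changes of 1.54 and 1.46), and Chaf1b, Daxx and Supt16h in iPSCs against MEFs (1.79, 1.81 and 1.20).

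Of the CAF-1 subunits among the members, Chaf1b rose and Chaf1a was not called. Chaf1b, a WD-repeat protein, stood at 21.2 and 10.5 FPKM in the MEF libraries, 23.0 and 14.1 in pre-iPSCs, then 71.3 and 41.4 in iPSCs. MEFs and pre-iPSCs overlapped, and both iPSC libraries were above all others. The change from pre-iPSCs to iPSCs was 1.54 on the log2 scale (SE 0.33, adjusted p = 0.031, limma), which was 3.09-fold and 2.94-fold in FPKM within replicates 1 and 2. The change from MEFs to iPSCs was 1.79 (SE 0.33, adjusted p = 0.0087, limma). Chaf1a, the large subunit that binds the replication clamp, was at 20.9 and 9.22 FPKM in MEFs, 26.9 and 13.46 in pre-iPSCs, then 24.4 and 28.0 in iPSCs. Its pre-iPSC and iPSC libraries overlapped, and its log2 change from MEFs to iPSCs was 0.86 (SE 0.42, adjusted p = 0.18, limma). That change ranged from 0.25 without iPSC replicate 2 to 1.47 without iPSC replicate 1 and was 0.49 without MEF replicate 2, none of them called. Rbbp4, the histone-binding subunit that CAF-1 shares with other complexes and no member here, was named after its values were seen, with a log2 change from MEFs to iPSCs of 0.33 (SE 0.35, adjusted p = 0.53, limma). Within a library, Chaf1b was 1.01 and 1.14 times Chaf1a in MEFs, 0.855 and 1.05 times in pre-iPSCs, and 2.92 and 1.48 times in iPSCs. The ratio was thus highest in the iPSC libraries.

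The call of Chaf1b and Daxx between pre-iPSCs and iPSCs depended on the fit. It was lost when the replicate table was left out of the model (adjusted p = 0.095 for each) and when any pre-iPSC or iPSC library was left out (adjusted p of 0.16 to 0.37 for Chaf1b and of 0.18 to 0.44 for Daxx), while the log2 changes stayed between 1.40 and 1.63. Against MEFs the calls of both were lost without either iPSC library (adjusted p of 0.065 to 0.072), with log2 changes of 1.77 to 1.84. The calls over all genes fell as well. In iPSCs against pre-iPSCs 1069 genes were called, and 741, 702, 91 and 36 without pre-iPSC replicate 1, pre-iPSC replicate 2, iPSC replicate 1 and iPSC replicate 2. In iPSCs against MEFs 3206 genes were called, and 655 and 1160 without iPSC replicate 1 and 2.

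Daxx rose and its partner Atrx was not called. Daxx, which binds the replacement variant of H3, was at 13.4 and 8.02 FPKM in MEFs, 18.1 and 9.99 in pre-iPSCs, then 49.3 and 30.6 in iPSCs. As for Chaf1b, MEFs and pre-iPSCs overlapped and the iPSC libraries stood above both. The change was 1.46 from pre-iPSCs to iPSCs (SE 0.33, adjusted p = 0.037, limma) and 1.81 from MEFs to iPSCs (SE 0.33, adjusted p = 0.0085, limma). Atrx, the chromatin remodeller of the pair, was at 13.8 and 8.93 FPKM in MEFs, 11.8 and 20.6 in pre-iPSCs, then 7.46 and 17.7 in iPSCs. All 3 cell types overlapped, and the iPSC libraries were 0.541 and 1.99 times the MEF libraries of the same table, so the replicates went opposite ways. The log2 change of Atrx from MEFs to iPSCs was 0.05 (SE 0.47, adjusted p = 0.95, limma). Daxx was 0.973 and 0.898 times Atrx in MEFs, 1.52 and 0.486 times in pre-iPSCs, and 6.61 and 1.73 times in iPSCs. The ratios of partners were not tested.

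**Figure D3:**
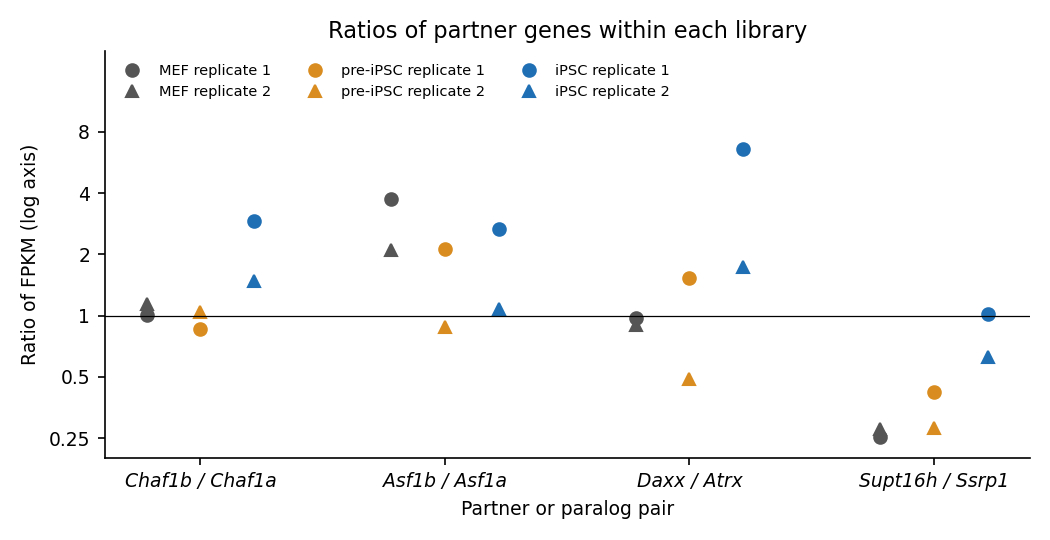
Ratio of FPKM (log axis) within each library for 4 pairs of partners or paralogs. Circles are replicate 1 and triangles replicate 2. The iPSC libraries have the highest ratios for Chaf1b to Chaf1a (2.92 and 1.48), Daxx to Atrx (6.61 and 1.73) and Supt16h to Ssrp1 (1.01 and 0.627), and lie within the range of the other libraries for Asf1b to Asf1a.

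Of the subunits of FACT, Supt16h rose and Ssrp1 was not called. Supt16h, the larger one, was at 34.2 and 18.0 FPKM in MEFs, 45.0 and 28.0 in pre-iPSCs, then 63.5 and 53.8 in iPSCs. Each iPSC library was above every pre-iPSC library, and the MEF and pre-iPSC libraries overlapped. The change from MEFs to iPSCs was 1.20 (SE 0.35, adjusted p = 0.043, limma), and that from pre-iPSCs to iPSCs was 0.70 (SE 0.35, adjusted p = 0.31, limma). The call against MEFs was near the threshold. It was lost with no filter on low values (adjusted p = 0.052), without the table term (0.085), and without MEF replicate 2, either pre-iPSC library or either iPSC library (0.094 to 0.19). Its log2 change was below the 2-fold limit without MEF replicate 2 (0.98) and without iPSC replicate 2 (0.93), and ranged up to 1.47 without iPSC replicate 1. Ssrp1, the subunit with the DNA-binding HMG box, was at 135 and 64.7 FPKM in MEFs, 107 and 99.3 in pre-iPSCs, then 62.7 and 85.7 in iPSCs. The iPSC libraries were both below the pre-iPSC libraries, with a log2 change of -0.49 (SE 0.45, adjusted p = 0.62, limma) that was not called, and they overlapped MEFs. Supt16h was 0.254 and 0.278 times Ssrp1 in MEFs and 1.01 and 0.627 times in iPSCs, with pre-iPSCs between (0.419 and 0.282).

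Neither ASF1 paralog was called. Asf1a was at 6.91 and 7.74 FPKM in MEFs, 11.8 and 8.76 in pre-iPSCs, then 15.5 and 11.4 in iPSCs. Each reprogrammed library was above both MEF libraries, and the log2 change from MEFs to iPSCs was 0.79 (SE 0.36, adjusted p = 0.15, limma). Asf1b, the paralog tied to dividing cells, was at 25.9 and 16.3 FPKM in MEFs, 25.02 and 7.66 in pre-iPSCs, then 41.6 and 12.3 in iPSCs. Its replicates differed more than its cell types, since replicate 2 was 0.306 times replicate 1 in pre-iPSCs and 0.296 times in iPSCs. Asf1b was 3.74 and 2.10 times Asf1a in MEFs, 2.13 and 0.875 times in pre-iPSCs, and 2.68 and 1.08 times in iPSCs.

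Hira and Nap1l1 were not called either. Hira was at 10.2 and 2.97 FPKM in MEFs, 16.1 and 7.27 in pre-iPSCs, then 12.8 and 13.0 in iPSCs. The iPSC libraries were above both MEF libraries and within the range of the pre-iPSC libraries. The log2 change from MEFs to iPSCs was 1.06 (SE 0.45, adjusted p = 0.13, limma). It was 0.41 without iPSC replicate 2, 0.57 without MEF replicate 2 and 1.71 without iPSC replicate 1, none of them called. Without MEF replicate 1 it was 1.55 and called (adjusted p = 0.029, over a range of 0.029 to 0.57 among the alternatives), in a fit whose MEF arm is replicate 2 alone and whose spread comes from the other cell types. Nap1l1 was at 308 and 215 FPKM in MEFs, 151 and 196 in pre-iPSCs, then 186 and 357 in iPSCs. The pre-iPSC libraries were both below the MEF libraries, with a log2 change of -0.58 (SE 0.49, adjusted p = 0.48, limma), and the iPSC libraries overlapped both other cell types.

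Genes of related function were described by lists that exclude the 10 members, and their counts stand beside the shares of all genes given above (10.3% called higher in iPSCs than in MEFs, 7.39% in pre-iPSCs than in MEFs, and 3.91% in iPSCs than in pre-iPSCs). An unadjusted p under 0.05 was found for 31.4% of all genes in pre-iPSCs against MEFs, for 21.6% in iPSCs against pre-iPSCs and for 39.3% in iPSCs against MEFs. Of 18 other chaperones and partners of H3 and H4, 5 were called higher in iPSCs than in MEFs and none lower, and the median log2 change was 0.53 beside -0.14 over all genes. Hat1, which acetylates new H4, was at 30.7 and 30.1 FPKM in MEFs, 43.1 and 26.6 in pre-iPSCs, then 122 and 125 in iPSCs. It was also the 1 gene of this list called between pre-iPSCs and iPSCs (log2 change 1.83, SE 0.36, adjusted p = 0.024, limma). Nasp, which holds the soluble store of H3 and H4, was at 40.5 and 32.8 FPKM in MEFs, 59.8 and 59.3 in pre-iPSCs, then 95.9 and 219 in iPSCs, a log2 change from MEFs of 1.96 (SE 0.45, adjusted p = 0.019, limma). Hjurp, the chaperone of the centromeric H3 variant, was the 1 gene called from MEFs to pre-iPSCs, from 3.09 and 1.12 FPKM to 7.11 and 8.70 (log2 change 1.59, SE 0.42, adjusted p = 0.044, limma). Of 14 tested chaperones of H2A and H2B other than Nap1l1, 0 were called in any comparison by limma, and 1, 0 and 0 had an unadjusted p under 0.05 in pre-iPSCs against MEFs, iPSCs against pre-iPSCs and iPSCs against MEFs. Of 8 histone variant genes, 1 was called, H2afv in iPSCs against MEFs (14.1 and 33.1 to 57.7 and 54.2 FPKM, log2 change 1.33, SE 0.41, adjusted p = 0.0499, limma). In pre-iPSCs against MEFs 0 of the 8 were called, though 5 had an unadjusted p under 0.05, and in iPSCs against pre-iPSCs 0 were called and 2 had one.

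The list of DNA replication shares Mcm2 with the chaperone partners above. Of its 33 genes, 14 were called higher in iPSCs than in MEFs and 0 lower (median log2 change 1.06), 4 in pre-iPSCs against MEFs (0.51) and 0 in iPSCs against pre-iPSCs (0.69), where 10 had an unadjusted p under 0.05. Cdt1, which licenses origins, was at 16.3 and 9.15 FPKM in MEFs and 117 and 61.2 in iPSCs (log2 change 2.69, SE 0.33, adjusted p = 0.0022, limma), and Mcm5, a helicase subunit, at 28.7 and 13.7 against 159 and 76.9 (2.42, SE 0.34, adjusted p = 0.0032). From MEFs to pre-iPSCs the largest called rises of the list were Pold1, the catalytic subunit of polymerase delta, at 1.61 (adjusted p = 0.021), and Mcm7 at 1.41 (adjusted p = 0.034). Of 17 genes of mitosis and proliferation, 3 were called higher in iPSCs than in MEFs, among them Bub1b (1.46, adjusted p = 0.049) and Ccnb1 (1.35, adjusted p = 0.037). From MEFs to pre-iPSCs and from pre-iPSCs to iPSCs 0 were called, and 4 and 1 had an unadjusted p under 0.05. Summed over the list, replication genes were at 994.9 and 720.5 FPKM in MEFs, 1470 and 902.8 in pre-iPSCs, then 2098 and 1522 in iPSCs. The part of growth rate in the changes of Chaf1b, Daxx and Supt16h was not tested.

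The genes with the pattern nearest to each called member were found by the root mean square difference of centred log2(FPKM + 1) over the 6 libraries, among 11410 genes that averaged 1 FPKM or more. For Chaf1b they were Zfp961 (0.15) and Rtkn2 (0.16). For Daxx they were Hspbap1 (0.12) and Rtkn2 (0.14). For Supt16h they were Ube2o (0.075) and Melk (0.093). Melk, a kinase gene of proliferating cells, was at 14.1 and 6.03 FPKM in MEFs, 20.0 and 10.8 in pre-iPSCs, then 27.1 and 22.1 in iPSCs.

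The promoters of the 3 called members and of Chaf1a are shown because the expression changes concern these genes and their partner. Each runs from 250 bases before to 50 bases after the start site, in mm9 and 5′ to 3′ on the strand of the gene, which is the plus strand for Chaf1a, Chaf1b and Daxx and the minus strand for Supt16h. They span chr17:56179589-56179888 (Chaf1a), chr16:93883896-93884195 (Chaf1b), chr17:34046296-34046595 (Daxx) and chr14:52816865-52817164 (Supt16h). Capitals mark the words TTCCCGC or TTCGCGC or TTGCCGC or TTGGCGC, read on either strand, which are forms of the E2F motif.
Chaf1a: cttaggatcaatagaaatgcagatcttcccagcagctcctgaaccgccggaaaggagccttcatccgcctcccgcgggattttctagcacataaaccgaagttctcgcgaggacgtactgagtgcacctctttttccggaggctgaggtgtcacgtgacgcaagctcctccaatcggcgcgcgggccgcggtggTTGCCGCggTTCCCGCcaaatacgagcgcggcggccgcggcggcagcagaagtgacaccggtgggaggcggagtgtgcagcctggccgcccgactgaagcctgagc
Chaf1b: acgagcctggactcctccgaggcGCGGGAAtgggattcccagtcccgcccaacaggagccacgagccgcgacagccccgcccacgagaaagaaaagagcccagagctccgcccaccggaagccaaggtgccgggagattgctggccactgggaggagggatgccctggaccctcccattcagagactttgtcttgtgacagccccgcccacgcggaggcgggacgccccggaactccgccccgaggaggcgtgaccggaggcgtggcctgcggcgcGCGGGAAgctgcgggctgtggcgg
Daxx: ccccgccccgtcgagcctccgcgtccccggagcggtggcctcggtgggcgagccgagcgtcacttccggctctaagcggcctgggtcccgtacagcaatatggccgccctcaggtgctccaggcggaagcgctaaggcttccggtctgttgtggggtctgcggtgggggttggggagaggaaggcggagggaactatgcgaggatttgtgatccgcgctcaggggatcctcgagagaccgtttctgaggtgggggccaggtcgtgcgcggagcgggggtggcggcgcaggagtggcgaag
Supt16h: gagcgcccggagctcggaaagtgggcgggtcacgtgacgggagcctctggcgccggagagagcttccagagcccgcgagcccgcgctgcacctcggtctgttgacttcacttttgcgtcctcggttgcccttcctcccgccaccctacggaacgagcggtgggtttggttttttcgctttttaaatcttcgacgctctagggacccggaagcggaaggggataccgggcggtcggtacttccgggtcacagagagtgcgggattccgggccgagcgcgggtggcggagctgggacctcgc

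E2F words were found in 4 of 10 member promoters (Chaf1a, Chaf1b, Atrx and Ssrp1) and in 13% of 20153 promoters of the same length. The first base of the word lay at -56 and -47 in Chaf1a, at -227 and 27 in Chaf1b, at 20 in Ssrp1 and at 1 in Atrx, where it overlaps a CCAAT word, counted from the start site as 1. Daxx and Supt16h, which were called higher in iPSCs, held none of these words in this window. Annotated starts of Daxx lie up to 187 bp upstream of the start used, so the window reaches less far before those. CCAAT was found in 4 of 10 member promoters and 38.1% of all, with 4 copies each in Asf1b and Atrx. The cell cycle words TTTGAA or TTCGAA were found in 3 of 10 and 16.6% of all, and GGGCGG in 7 of 10 and 49.1% of all. The number of CpG ranged from 25 to 35 in 8 of the promoters, beside a median of 15 over all, and was 11 in Atrx and 3 in Nap1l1. The start of Nap1l1 in the expression tables is internal, since the annotation begins the gene 7425 bp upstream, so marks are given for both positions.

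H3K4me3, a mark of active start sites, was compared within 1000 bp of each start. Reads of called nucleosomes numbered 12007350 to 13146349 for each H3K4me3 library, which left 11 to 77 reads at each member. In edgeR tests over 17700 starts 0 of 10 members were called in any of the 3 comparisons, where 3.85% of all starts were called from MEFs to pre-iPSCs, 0% from pre-iPSCs to iPSCs and 13.7% from MEFs to iPSCs. At an unadjusted p under 0.05, 0, 0 and 1 members passed, beside 19.6%, 8.93% and 29.9% of all starts, and DESeq2 called 0 members in each, with 31, 0 and 119 of 19845 starts called in all. Daxx was at 1.73 and 1.72 RPKM in MEFs, 1.23 and 1.43 in pre-iPSCs, then 1.36 and 1.28 in iPSCs. Chaf1b was at 1.52 and 1.02 RPKM in MEFs, 0.889 and 0.942 in pre-iPSCs, then 1.24 and 0.789 in iPSCs. For neither gene were both iPSC libraries above both MEF libraries. RPKM are scaled to uniquely mapped reads, where the median log2 change over all starts was -0.38 from MEFs to iPSCs. In the edgeR test, where that median was -0.03, the log2 change was -0.04 for Daxx and 0.03 for Chaf1b. MEF replicate 1 had the highest median over all starts (1.22 RPKM, against 0.812 to 0.955 in the others).

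In each library the member with the most H3K4me3 was a FACT subunit, Ssrp1 in MEFs and pre-iPSCs and Supt16h in iPSCs. Ssrp1 was at 2.61 and 2.01 RPKM in MEFs, 1.75 and 1.56 in pre-iPSCs, then 1.27 and 1.15 in iPSCs, and the 3 cell types did not overlap. The share of all starts that separated in this way was not computed. On the scale of RPKM, the median log2 change over all starts from MEFs was -0.40 in pre-iPSCs and -0.38 in iPSCs. The log2 change of Ssrp1 from MEFs to iPSCs was -0.58 (SE 0.24, adjusted p = 0.096, edgeR). It was -0.92 with a call (adjusted p = 0.035, edgeR) when counts were scaled to uniquely mapped reads, where the median over all starts moved from -0.03 to -0.38. With that scaling the calls over all starts in this comparison turned from 1724 higher and 709 lower to 842 and 2370, and from MEFs to pre-iPSCs from 540 and 141 to 232 and 1134. Supt16h was at 1.96 and 1.59 RPKM in MEFs, 1.47 and 0.974 in pre-iPSCs, then 1.80 and 1.68 in iPSCs, and its log2 change from pre-iPSCs to iPSCs was 0.47 (SE 0.25, adjusted p = 0.59, edgeR). Atrx was low, at 0.711 and 0.955 RPKM in MEFs, 0.460 and 0.390 in pre-iPSCs, then 0.621 and 0.362 in iPSCs, and the share of reads on X was also higher in MEF libraries. Nap1l1 was at 0.398 to 0.724 RPKM at the start in the tables and at 0.828 to 1.46 RPKM at the start annotated upstream. The start of the tables was the lower one in each of the 6 libraries. Other annotated genes start within 1000 bp of Ssrp1 (P2rx3), Hira (Mrpl40), Daxx (BC051226), Supt16h (Gm16682), Asf1b (Gm10644) and Nap1l1 (SNORA48), so reads there can belong to either gene. Genes on the other strand overlap Chaf1a (Ubxn6), Asf1a (Mcm9), Supt16h (Rpgrip1), Atrx (the small RNA genes U2 and U6), Ssrp1 and Hira. The sources used here do not say that the RNA-seq used strand.

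**Figure D4:**
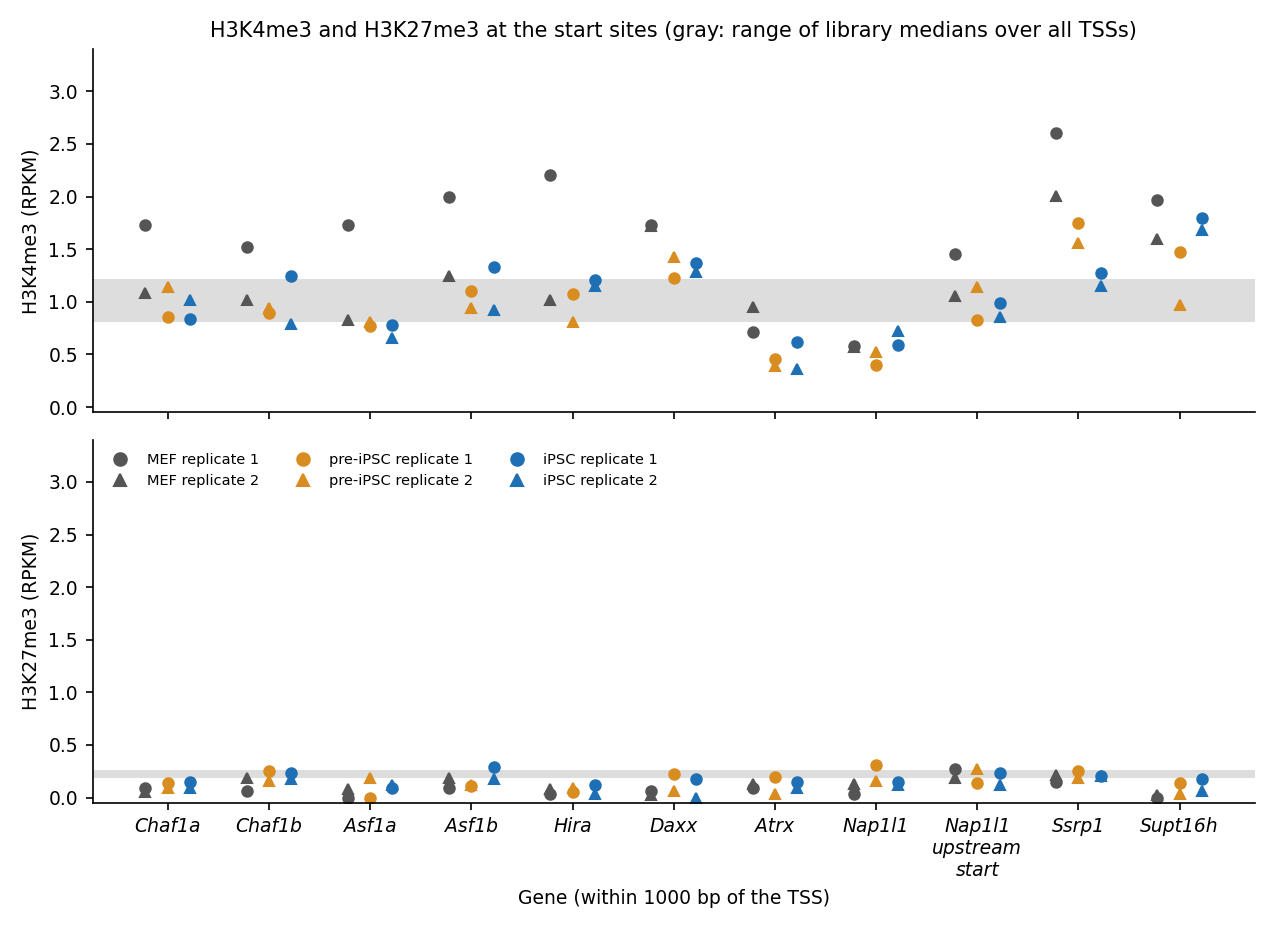
H3K4me3 (top) and H3K27me3 (bottom) in RPKM within 1000 bp of the start site of each gene, for each library, with Nap1l1 also at its upstream start. The gray band is the range of the library medians over all starts. In H3K4me3 Ssrp1 lies at 2.01 to 2.61 RPKM in MEFs and at 1.15 to 1.27 in iPSCs. This change was not called in the main edgeR test (adjusted p = 0.096). Every member lies at or below 0.309 RPKM in H3K27me3.

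H3K27me3, the mark of Polycomb, had 0 to 11 reads at a member and at most 0.309 RPKM, and 4 of the 60 values were above the median of their library (0.182 to 0.259 RPKM). No member had enough reads to pass the filter of the edgeR test. Without the filter edgeR called 0 of 10 members and 735, 49 and 1205 of 19833 starts in the 3 comparisons, and DESeq2, which tested all 10, called 0 of them and 54, 0 and 44 starts (from MEFs to pre-iPSCs, from pre-iPSCs to iPSCs and from MEFs to iPSCs). With so few reads at each member, these counts do not show that the mark did not differ. H3K9me3, the mark of heterochromatin, had 1 to 15 reads and 4 of 30 values above the median of their library. The highest were at Ssrp1, with 0.492 RPKM in MEFs (15 reads), at or above 90.4% of all starts, and 0.397 in iPSCs (12 reads), at or above 78.8%, and its pre-iPSC library had 0.187 RPKM (6 reads). With 1 library for each cell type there was no test. An exact Poisson 95% interval, which covers counting error only, ran from 0.275 to 0.811 RPKM for the MEF library and from 0.0687 to 0.407 for the pre-iPSC library, so the intervals overlapped.

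H3 itself shows where nucleosomes sit, and its libraries did not match by cell type. Over all starts the median was 0.550 RPKM in pre-iPSC replicate 1 and 0.408 in iPSC replicate 1, against 0.204 to 0.238 in the other 4 libraries. In pre-iPSC replicate 1, 10 of 10 members had more H3 than in each of the other 4 libraries, beside 77.7% of all starts. In iPSC replicate 1, 9 of 10 did, all but Nap1l1, beside 73.9% of all starts. Asf1b had 1.02 RPKM in pre-iPSC replicate 1 and 0.760 in iPSC replicate 1 and 0.144 to 0.171 in the others, and Daxx had 0.770, 0.536 and 0.0938 to 0.184. In edgeR tests over 19560 starts 0 of 10 members and 0% of all starts were called in each comparison. At an unadjusted p under 0.05, 0 of 10 members passed in each, as did 373, 105 and 296 of all starts from MEFs to pre-iPSCs, from pre-iPSCs to iPSCs and from MEFs to iPSCs, and DESeq2 called 0. The 0% over all starts changed when pre-iPSC replicate 2 was left out, since 1172 starts were called higher and 3417 lower in pre-iPSCs than in MEFs, and 2061 higher and 85 lower in iPSCs than in pre-iPSCs, with 0 of 10 members among them. Without the 2 libraries of high H3, an alternative chosen after the data were seen that leaves 1 library each for pre-iPSCs and iPSCs, 0 of 10 members were called as well, beside 25, 0 and 9 of 19590 starts. With replicates this far apart, the counts of 0 do not show that H3 did not differ.

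The strongest H3 call just after the start was compared between the 2 libraries of high H3. At Asf1b the strongest call within 300 bp downstream was centred at 123 bp in pre-iPSC replicate 1 and at 122 bp in iPSC replicate 1, with 44 reads in each. At Atrx it was at 140 and 146 bp (15 and 11 reads) and at Supt16h at 211 and 220 bp (20 and 10 reads). The calls of these 3 of 10 genes lay 1 to 9 bp apart in the 2 libraries, beside 31.5% of the 18025 starts with a call in both that lay within 9 bp, so the members' share is near that of all starts. In replicate 2 of pre-iPSCs and iPSCs the calls lay elsewhere, at 294 and 156 bp for Asf1b (5 and 7 reads), at 283 and 280 bp for Atrx (2 and 4 reads) and at 140 and 88 bp for Supt16h (3 and 2 reads). Calls of replicates 1 and 2 lay within 9 bp at 16.9% of all starts with both in pre-iPSCs and 17% in iPSCs. Among the members they did so at 0 of 8 and 1 of 10. The median distance between the 2 libraries of high H3 was 33 bp for the members and 24 bp for the 18025 starts. The calls of the other members lay 13 to 152 bp apart in these 2 libraries, where the calls of Nap1l1 rest on 5 reads and 1 read. At Daxx the call of the high libraries was at 28 and 6 bp (32 and 27 reads), so the start of the tables was itself covered, and annotated starts of Daxx lie up to 187 bp upstream. At Chaf1a the strongest calls were 152 bp apart (244 and 92 bp). From -150 to 50 bp of the start, where nucleosomes are often missing, Chaf1a, Chaf1b and Ssrp1 had 0 reads in both libraries, while Supt16h had 22 and 21 and Hira 10 in each, beside a median over all genes of 2 and 3 reads. The annotated starts found for Hira lie 287 to 662 bp downstream of the start used here, so its window lies upstream of them.

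**Figure D5:**
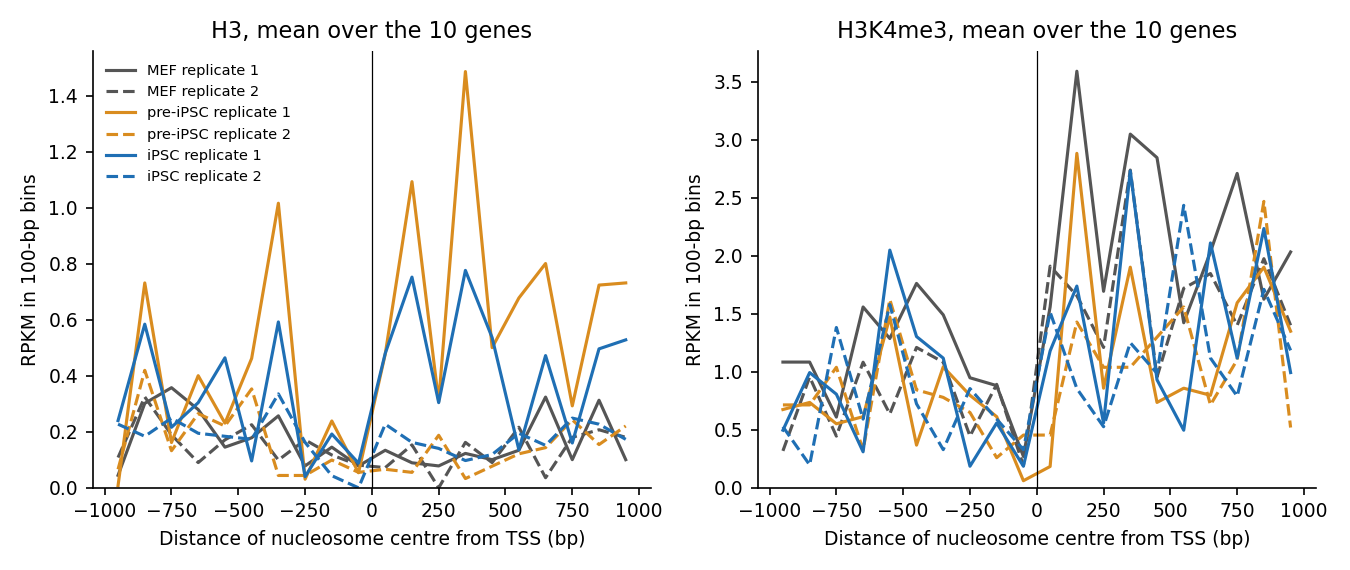
Reads of called nucleosomes in RPKM in 100-bp bins by distance from the start site (bp), averaged over the 10 genes, for H3 (left) and H3K4me3 (right), solid for replicate 1 and dashed for replicate 2. In the bin centred 350 bp downstream, H3 was 1.49 RPKM in pre-iPSC replicate 1 and 0.776 in iPSC replicate 1. It was 0.0331 to 0.162 there in the other libraries. Both signals are low just before the start, though H3 is as low or lower in other bins of each library except iPSC replicate 2.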

How the data were processed

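The members and gene lists were chosen with earlier results of these data known. ChIP-seq reads were mapped to mm9 by the authors (Bowtie 1.0.1 in the submitters' notes), and nucleosomes were then called on unique reads with GeneTrack after a shift of 73 bp. From these files the deposited count of reads and the position of each nucleosome are used. For RNA-seq the deposited FPKM were made by the authors with TopHat2 2.0.4 and Cufflinks 2.0.2, in 2 tables that hold replicate 1 and replicate 2 of every cell type.

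limma 3.58.1 with an intensity trend was fitted to log2(FPKM + 1) of genes that averaged 0.5 FPKM or more, with the table as a term, since the tables were normalized apart. A fold change on this scale understates low genes. Reads of nucleosomes centred within 1000 bp of a start were tested with edgeR 4.0.16 (quasi-likelihood, TMM) over all starts, with DESeq2 1.42.0 as an alternative, and adjusted by Benjamini-Hochberg. RPKM are scaled to uniquely mapped reads, and intervals cover counting error only. Replicates are the libraries so labelled, and p-values measure the spread between them. In the expression fit this is only the spread left after the table term takes out a shift shared by the libraries of a table. The tests were checked on simulated data, where the edgeR test of H3 missed most of the changes that had been put in. The simulated H3K27me3 data left out starts with as few reads as the members.

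Genes are named by a rule: all 10 members, in other lists the called genes with the 2 largest rises and falls in each comparison, the Y-linked genes, and the 2 genes of nearest pattern for each called member. Promoter words were searched in mm9 on both strands. The scripts ran in R 4.3.3 and in Python 3.11.15. Reads outside calls were not used here.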

Additional observations from a re-analysis of the deposited data

How the results depend on the processing

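With 2 libraries for each cell type, an exact permutation test of a single value cannot go below p = 0.33, so the calls rest on the spread shared across genes. The number of members called in iPSCs against pre-iPSCs was 2, and 0 without the replicate block of the tables. It ranged from 0 to 2 when 1 library was left out, and in iPSCs against MEFs from 0 to 4 around the value of 3, with 0 without iPSC replicate 1 or 2 and 4 without MEF replicate 1. A cell type left with 1 library is assumed to vary like the others. Pseudocounts of 0.1 and 5 FPKM and quantile normalization changed neither count beyond 1.5 times, and calls without the fold limit were as many. The replicate differences of cell types correlated at -0.205 to 0.346 in RNA, -0.053 to 0.115 in H3K4me3, -0.043 to 0.033 in H3K27me3 and -0.032 to 0.794 in H3 (0.794 for pre-iPSCs and iPSCs). Not every pair passed 0.1 in any assay, so the numbers were not taken to pair samples in the chromatin tests. A replicate block there changed no count of members. The expression fit does hold the table, and with it the replicate number, as a term, because the tables were normalized apart. Scaled to uniquely mapped reads, H3K4me3 called 1 member from MEFs to iPSCs, Ssrp1. With calls of at least 2 reads, 7 of 30 H3K9me3 values were above the median.

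Log2 changes of uncalled members turned their sign. From MEFs to iPSCs quantile normalization gave 0.64 for Nap1l1 and 0.12 for Ssrp1. H3K4me3 of Supt16h from MEFs to iPSCs gave -0.037 within 500 bp and -0.030 when scaled to uniquely mapped reads, and ranged from -0.43 to 0.055 from MEFs to pre-iPSCs without 1 library. With 1 library left out, expression from MEFs to pre-iPSCs ranged from -0.30 to 1.22 for Atrx, from -1.16 to 0.0086 for Nap1l1 and from -0.46 to 0.75 for Ssrp1. From pre-iPSCs to iPSCs it ranged from -0.18 to 1.04 for Chaf1a, from -0.42 to 0.87 for Hira, from -0.93 to 0.13 for Atrx and from -1.001 to 0.024 for Ssrp1. From MEFs to iPSCs it ranged from -0.35 to 0.64 for Asf1b, from -0.71 to 0.82 for Atrx, from -0.59 to 0.58 for Nap1l1 and from -0.95 to 0.26 for Ssrp1. The cause of these turns was not tested.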
